A study of Homo sapiens with 7 samples.

Results

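The AP-1 subunits of the FOS and JUN families were followed in libraries from cells given PBS or PTH (parathyroid hormone). The members were the rows of both deposited expression tables whose gene symbol is Fos, Fosb, Fosl1, Fosl2, Jun, Junb, Jund or Batf3. Each symbol had 1 row, so 8 of 22062 rows were taken. All 7 libraries carried the label LX2, a human line derived from hepatic stellate cells and in wide use, 3 of them given PBS and 4 given PTH. The dose and duration of PTH and the number of cultures behind the libraries were not given in the sources used here, so p-values reflect only the variation among these libraries, which may be technical. Values are FPKM, fragment numbers divided by transcript length and by the fragments mapped in the library, and the number of reads behind them is unknown. All gene identifiers in the tables are those of rat, while the labels name a human line, the submitters' processing notes name the mouse build mm8 and mice appear in the text on the series' design. Genes are therefore given by their rat symbols, and no coordinate from the tables is printed.

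AP-1 is a family of dimeric transcription factors whose subunits carry a basic region that contacts DNA and a leucine zipper that holds the pair together. JUN proteins pair with each other or with FOS proteins, while FOS proteins need a JUN-type partner, so that the mixture of subunits in a cell sets which dimers can form. Fos, Fosb, Jun and Junb are known as early response genes whose transcripts appear within minutes of a stimulus and decay fast, and Fosl1, Fosl2 and Jund are known for slower or steadier expression. The PTH receptor raises cAMP, and cAMP activates CREB, a factor that binds the cAMP response element (CRE). In stellate cells AP-1 is known as a regulator of genes of matrix turnover.

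The promoters of a FOS-type pair and a JUN-type pair are shown because, in each pair, one transcript had a lower and the other a higher mean with PTH. They are the human genes from RefSeq, 250 bases before to 50 bases after the start, since the labels name a human line. Of the 8 members 6 had an entry in the promoter table. Capitals mark matches on either strand to the CRE core TGACG, to the CRE palindrome TGACGTCA, which contains the core on both strands, or to the AP-1 site TGANTCA.
FOS promoter, GRCh38.p14 chr14:75278578-75278877 (plus strand): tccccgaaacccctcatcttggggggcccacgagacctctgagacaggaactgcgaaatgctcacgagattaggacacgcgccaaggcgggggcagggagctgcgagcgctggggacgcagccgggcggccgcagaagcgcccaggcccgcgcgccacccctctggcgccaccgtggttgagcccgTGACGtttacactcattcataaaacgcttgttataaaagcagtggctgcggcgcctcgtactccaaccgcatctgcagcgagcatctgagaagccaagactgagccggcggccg
FOSL2 promoter, GRCh38.p14 chr2:28392608-28392907 (plus strand): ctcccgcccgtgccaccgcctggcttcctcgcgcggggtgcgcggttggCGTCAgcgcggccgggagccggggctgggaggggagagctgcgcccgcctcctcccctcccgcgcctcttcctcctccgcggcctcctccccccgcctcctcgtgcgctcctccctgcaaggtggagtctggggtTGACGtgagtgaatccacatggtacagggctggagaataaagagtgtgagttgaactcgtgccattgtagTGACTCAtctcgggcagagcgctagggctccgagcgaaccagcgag
JUNB promoter, GRCh38.p14 chr19:12791236-12791535 (plus strand): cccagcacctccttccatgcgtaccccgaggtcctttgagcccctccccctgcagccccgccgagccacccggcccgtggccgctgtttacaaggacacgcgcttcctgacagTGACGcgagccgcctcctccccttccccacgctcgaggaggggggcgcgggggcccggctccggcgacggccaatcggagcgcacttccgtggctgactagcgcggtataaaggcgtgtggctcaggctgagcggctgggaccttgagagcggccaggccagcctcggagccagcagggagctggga
JUND promoter, GRCh38.p14 chr19:18281573-18281872 (minus strand): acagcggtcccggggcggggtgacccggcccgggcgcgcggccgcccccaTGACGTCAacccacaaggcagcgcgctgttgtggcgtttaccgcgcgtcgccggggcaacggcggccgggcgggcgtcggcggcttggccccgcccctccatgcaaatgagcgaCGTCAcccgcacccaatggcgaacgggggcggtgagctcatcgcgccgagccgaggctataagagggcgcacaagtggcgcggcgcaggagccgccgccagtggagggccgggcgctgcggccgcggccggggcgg

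The core TGACG was found in all 6 member promoters with an entry, and in 24.6% of the 35116 promoters of the same length. The palindrome TGACGTCA was found in that of JUND among the 6, and in 1.85% of all promoters. The site TGANTCA was found in that of FOSL2 among the 6, and in 7.71% of all promoters. Both the genes with lower and those with higher mean transcript levels held the core. These matches describe letters in the human sequence and do not show binding.

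Fos fell with PTH, and no other member passed the test. Fosl2 and Jund had higher means with PTH, Fosl1 and Junb lower ones, and Jun and Fosb lay near their PBS levels. The mean of Fos was 1.88-fold lower, that of Fosl2 2.07-fold higher, that of Junb 1.30-fold lower and that of Jund 1.32-fold higher. PTH was compared with PBS by limma's moderated test on log2(FPKM + 1) over the 10662 genes that averaged 1 FPKM or more, and a call needed an adjusted p (Benjamini-Hochberg) under 0.05. Of the 8 members 7 passed this filter on low values. Limma called 1 of the 7 lower and 0 higher, while the unadjusted p was under 0.05 for 3 members lower with PTH and 2 higher. Of all 10662 tested genes 2310 were lower and 1301 higher at an unadjusted limma p under 0.05, so many genes passed that cut. Over all tested genes 11.4% were called, 3.45% higher and 7.96% lower, so the members' count stands near the background. The split of all calls depended on the scaling between libraries: 30.2% of them were higher as deposited, 65.2% after each library was set to the same summed FPKM, 51.7% after median centring and 53.7% after quantile normalization. Fos stayed called and no other member was called under these scalings.

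**Figure D1:**
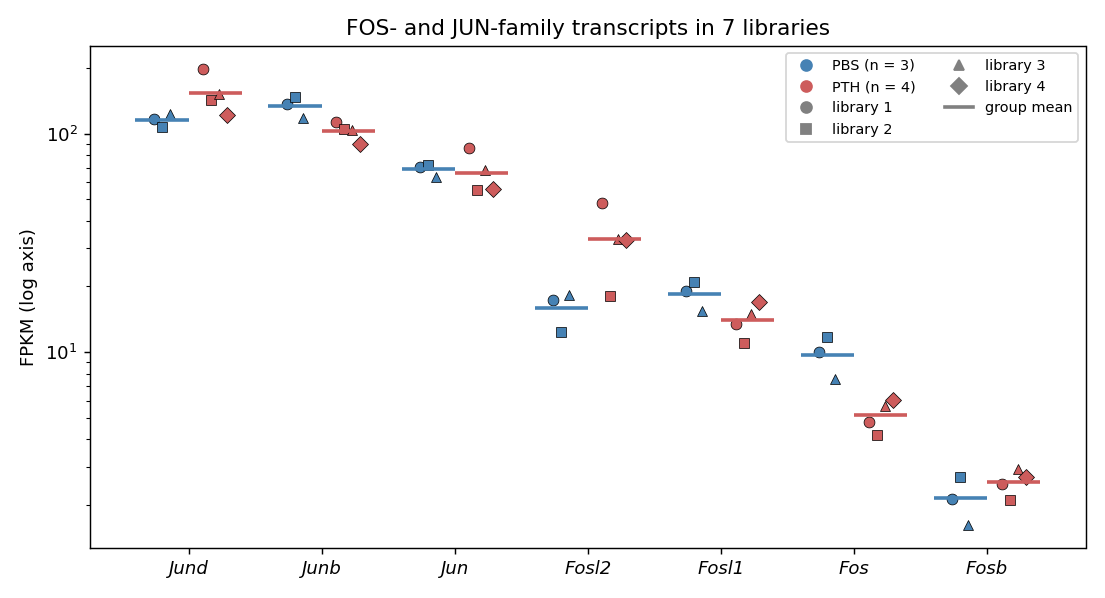
FPKM (log axis) of the 7 detected FOS- and JUN-family transcripts in each library, with PBS in blue (n = 3) and PTH in red (n = 4), a marker shape for each library number and a bar for each group mean. All 4 PTH values of Fos, from 4.19 to 6.07 FPKM, lie below the 3 PBS values, whereas the groups overlap for Fosl2, where PTH library 2 stands at 18.1 FPKM. Batf3, listed at 0 throughout, is not drawn.

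Fos, the first FOS protein known and an early target of CREB and of serum response factor, held 10.02, 11.7 and 7.55 FPKM in PBS libraries 1 to 3. It held 4.80, 4.19, 5.70 and 6.07 FPKM in PTH libraries 1 to 4. Every PTH library lay below every PBS library, with PTH library 4 closest to PBS library 3. The log2 fold change was -0.79 ± 0.17 (SE), with a 95% interval from -1.18 to -0.40 and a limma adjusted p of 0.0352. The call was lost without PBS library 1 (adjusted p = 0.157), PBS library 2 (0.1205), PBS library 3 (0.0549), PTH library 3 (0.0900) or PTH library 4 (0.0551), and was kept without PTH library 1 (0.0426) or PTH library 2 (0.0255). It was also lost when the mitochondrial mRNA share, described below, entered as a covariate (log2 fold change -0.85, limma adjusted p = 0.389). With the replicate number as a block, also described below, the call was lost as well (limma adjusted p = 0.0922). Over all alternatives the limma adjusted p of Fos ranged from 5.93e-05 to 0.389 and its log2 fold change from -0.95 to -0.66. The smallest came from the fit with sample quality weights, whose estimate stopped before convergence. In the other fits the smallest was 0.0255. The authors' deposited table gives Fos -0.91 as log2 fold change and an FDR of 0.00285.

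Fosl2, known also as FRA2, lacks the strong transactivation domain of Fos and is known for a role in fibrosis. It held 17.3, 12.4 and 18.3 FPKM in the PBS libraries and 48.3, 18.1, 33.1 and 32.8 FPKM in the PTH libraries. PTH libraries 1, 3 and 4 lay above all PBS libraries, and PTH library 2 lay between PBS libraries 1 and 3. Its mean with PBS was 16.0 ± 3.19 FPKM (SD, n = 3), and its mean with PTH was 33.1 ± 12.3 FPKM (SD, n = 4). The log2 fold change of 0.95 ± 0.29 (SE) had a 95% interval from 0.28 to 1.61, and the limma adjusted p of 0.0651 missed the threshold. Without PTH library 2 the log2 fold change was 1.20, with a limma adjusted p of 0.009865. Fosl2 was not called when any other library was left out, with limma adjusted p from 0.0915 to 0.195. The PTH library with the highest Fosl2 had the lowest mitochondrial mRNA share, 0.867% of summed FPKM in library 1, and the one with the lowest Fosl2 had the highest, 3.61% in library 2. With that share as a covariate the estimate for Fosl2 turned to -0.48 with a limma adjusted p of 0.626. The shares of the PBS libraries, 5.78 to 5.90%, lay above all PTH shares, so this covariate and PTH cannot be told apart. The authors' deposited table gives Fosl2 1.05 as log2 fold change and an FDR of 6.51e-04.

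Fosl1, known as FRA1, is likewise a FOS protein without that domain and is an AP-1 target itself. It held 19.0, 21.0 and 15.4 FPKM with PBS and 13.4, 11.0, 15.0 and 17.1 FPKM with PTH. PTH libraries 1, 2 and 3 lay below all PBS libraries, and PTH library 4 lay between PBS libraries 1 and 3. Its log2 fold change was -0.37 ± 0.16 (SE), with a 95% interval from -0.73 to -0.01 and a limma adjusted p of 0.138. The authors' deposited table gives Fosl1 -0.39 as log2 fold change and an FDR of 0.0505.

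Fosb, the closest relative of Fos in structure, was the lowest of the listed FOS-type transcripts. It held 2.13, 2.69 and 1.63 FPKM with PBS and 2.50, 2.12, 2.91 and 2.70 FPKM with PTH, and the groups overlapped. Its log2 fold change of 0.18 had a 95% interval from -0.21 to 0.58 and a limma adjusted p of 0.476. Fosb stood among the lowest tested transcripts, with 8.22% of tested genes below it. The authors' deposited table gives Fosb an FDR of 1.

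Junb, a JUN protein known to weaken the activity of Jun on many targets, held 136.5, 147 and 118 FPKM in the PBS libraries. It held 113.6, 104.6, 104.3 and 89.4 FPKM in the PTH libraries. The groups did not overlap, with PTH library 1 just under PBS library 3. The log2 fold change was -0.37 ± 0.10 (SE), with a 95% interval from -0.61 to -0.14 and a limma adjusted p of 0.0516. Junb passed without PTH library 1 (limma adjusted p = 0.0391) or PTH library 2 (0.0476), and after correction for GC content (log2 fold change -0.56, 0.0107). It missed the threshold when any other library was left out, with a limma adjusted p of up to 0.183 (without PBS library 1). With the mitochondrial share as a covariate it missed as well (limma adjusted p = 0.246). Of 18 alternatives 5 called Junb. The authors' deposited table gives Junb -0.38 as log2 fold change and an FDR of 6.51e-04. Fos and Junb were the members whose groups did not overlap, 2 of 7, against 33.4% of all tested genes.

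Jund, the JUN protein known for steady expression and for restraint of growth, held 116.8, 107 and 123 FPKM with PBS. It held 198, 142, 151 and 121 FPKM with PTH. PTH library 1 was the highest of all and PTH library 4 lay below PBS library 3. The log2 fold change of 0.38 ± 0.15 (SE) had a 95% interval from 0.04 to 0.72 and a limma adjusted p of 0.116. It was 0.13 after correction for GC content, of which the human JUND transcript has 69.7%, the highest of the members, and -0.33 when the mitochondrial share was a covariate. The authors' deposited table gives Jund 0.40 as log2 fold change and an FDR of 0.00248.

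Jun, the founding JUN protein and the target of the JNK kinases, held 70.7, 71.9 and 63.7 FPKM with PBS and 85.7, 55.4, 68.1 and 55.9 FPKM with PTH. PTH library 1 lay above and PTH libraries 2 and 4 below all PBS libraries. For Jun the log2 fold change of -0.07 ± 0.15 (SE) had a 95% interval from -0.41 to 0.27 and a limma adjusted p of 0.760, and turned to 0.02 when each library was set to the same summed FPKM. With the mitochondrial share as a covariate it was -0.90 with a limma adjusted p of 0.0812. The coefficient of variation of Jun was 6.46% with PBS and 21.5% with PTH, and that of Jund 6.89% and 21.2%. For Fos it was 21.5% with PBS and 16.5% with PTH.

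**Figure D2:**
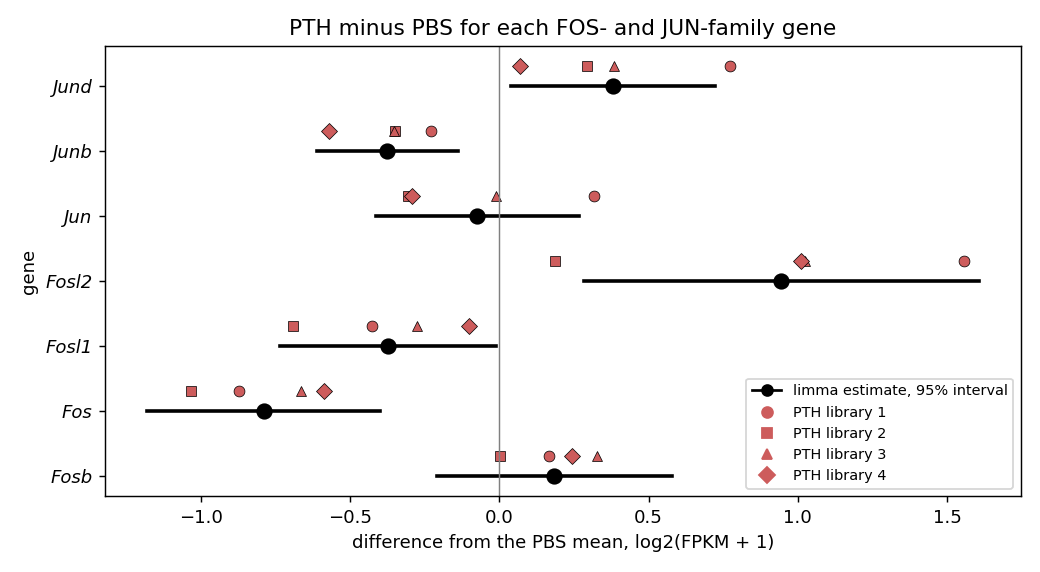
Difference of each PTH library from the PBS mean (red, a marker shape for each library) and the limma estimate with its 95% interval (black) on the log2(FPKM + 1) scale. The interval of Fos runs from -1.18 to -0.40 and that of Fosl2 from 0.28 to 1.61, and PTH library 1 lies highest for Fosl2, Jun, Junb and Jund.

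Batf3, a small AP-1 protein that pairs with JUN proteins and is best known in dendritic cells, was listed at 0 in all 7 libraries. Of the 22062 rows 8559 were likewise at 0 in all libraries. The related Batf did not pass the filter on low values either. Batf3 belongs to neither type and stayed out of the sums below.

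JUN-type transcripts were more abundant than FOS-type transcripts in every library. Jun, Junb and Jund together held 305 to 326 FPKM in the PBS libraries and 267 to 397 FPKM in the PTH libraries. Fos, Fosb, Fosl1 and Fosl2 together held 42.9 to 48.4 FPKM with PBS and 35.4 to 69.0 FPKM with PTH. The FOS-type share of both sums was 12.7 ± 0.33% (SD) over the 3 PBS libraries and 14.6 ± 3.09% (SD) over the 4 PTH libraries, and the PTH values, from 10.5 to 18.0%, spanned those with PBS. The log2 ratio of the FOS-type sum to the JUN-type sum was 0.20 higher with PTH, and 0.21 lower when Fosl2 and Jund were left out. Fosl2 and Jund were the most abundant of each type by the mean over all 7 libraries, which their higher PTH means set, whereas Fosl1 and Junb had the higher means with PBS. Neither difference was tested, since the members were chosen with earlier results of these data known.

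Within each type the make-up differed more than the sums did. Fosl2 made up 35.6, 25.8 and 42.7% of the FOS-type FPKM in PBS libraries 1 to 3 and 70.0, 51.1, 58.4 and 55.9% in PTH libraries 1 to 4. Fos made up 17.6 to 24.5% with PBS and 6.96 to 11.8% with PTH, and Fosl1 35.9 to 44.0% and 19.4 to 31.0%. The groups did not overlap for any of these shares. Those of Fosb overlapped, at 3.78 to 5.63% and 3.62 to 5.99%. Among the JUN-type transcripts Jund made up 32.9 to 40.4% with PBS and 45.5 to 49.8% with PTH, and Junb 38.7 to 45.1% and 28.6 to 34.6%. The share of Jun, 20.9 to 22.0% and 18.4 to 21.6%, overlapped. Shares within a type are tied to each other, since a higher share for any transcript lowers those of the others. They are therefore not separate results, and they were not tested. In FPKM the groups overlapped for Fosl1, Fosl2 and Jund. The FPKM of the groups did not overlap for 33.4% of all tested genes, a figure for single genes and not for shares. With the mitochondrial mRNA share as a covariate the log2 fold changes were -0.48 for Fosl2, -0.50 for Fosl1 and -0.85 for Fos. They were -0.33 for Jund and -0.64 for Junb. Fosl2 and Fos, and likewise Jund and Junb, then lay closer together than without the covariate, which cannot be told apart from PTH.

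**Figure D3:**
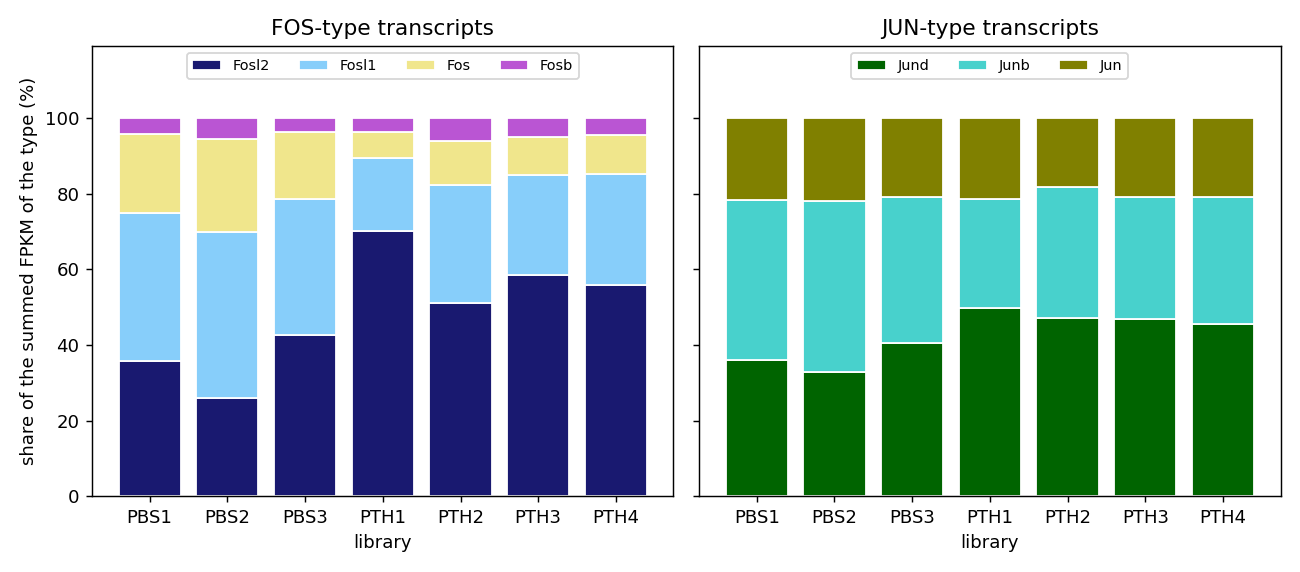
Share of each transcript in the summed FPKM of the FOS-type (left) and JUN-type (right) members, in percent, for each of the 7 libraries. Fosl2 takes 51.1 to 70.0% of the FOS-type sum in the PTH libraries against 25.8 to 42.7% with PBS, and the share of Jun in the JUN-type sum is close to constant.

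The order of the transcripts by FPKM differed between the groups. By the mean over all libraries the order was Jund, Junb, Jun, Fosl2, Fosl1, Fos and Fosb, at 137, 116, 67.3, 25.8, 16.0, 7.15 and 2.38 FPKM. The PBS means alone gave Junb before Jund, at 134 and 116 FPKM, and Fosl1 before Fosl2, at 18.5 and 16.0 FPKM, and the values of each of these pairs overlapped. With PTH Jund lay above Junb and Fosl2 above Fosl1 with no overlap. Every other pair of neighbours in this order was apart in both groups.

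Ratios between members of the same library do not depend on a common factor that scales all genes of that library. Quantile normalization and GC correction can change such ratios, which were computed only from the values as deposited. The ratio of Fosl2 to Fos was 1.72, 1.05 and 2.43 in the PBS libraries and 10.06, 4.32, 5.81 and 5.40 in the PTH libraries. The ratio of Jund to Junb was 0.855, 0.728 and 1.04 with PBS and 1.74, 1.36, 1.45 and 1.36 with PTH. That of Fosl2 to Fosl1 was 0.588 to 1.19 with PBS and 1.65 to 3.60 with PTH. The groups did not overlap in any of these ratios, which were picked after the values were seen and carry no test. Each set a transcript whose mean was higher with PTH over one whose mean was lower, a choice that favours separation. How often ratios of other gene pairs separate was not counted. The ratios show unequal change, not which transcript changed.

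**Figure D4:**
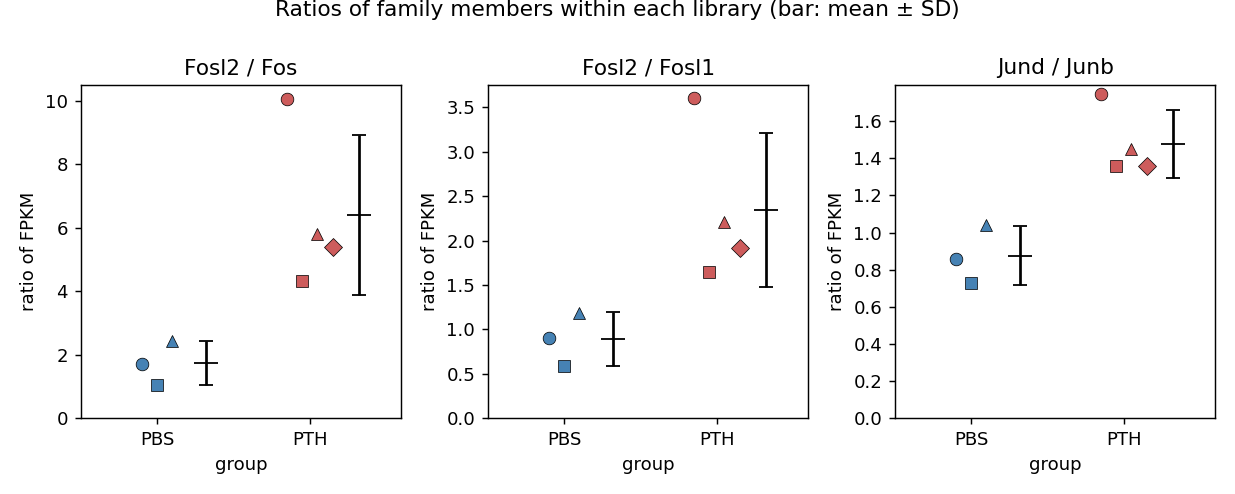
Ratio of FPKM within each library for Fosl2 to Fos, Fosl2 to Fosl1 and Jund to Junb, by group, with the mean ± SD beside the points (PBS n = 3, PTH n = 4). PTH library 1 is the highest in each panel, at 10.06, 3.60 and 1.74, and no PTH value is as low as a PBS value.

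The libraries differed in other respects that moved with the groups. Summed FPKM was 519845 to 532909 with PBS and 472621 to 509859 with PTH, and the mitochondrial mRNA share was 5.85 ± 0.062% (SD, n = 3) and 2.48 ± 1.18% (SD, n = 4). The two-sided exact permutation test over the 35 assignments gave p = 0.0571 for each, the smallest it can give. Of the 11 stellate markers 10 were found by symbol, and their summed level was 2791 to 2823 FPKM with PBS and 2941 to 3354 FPKM with PTH. Most of it came from Timp1, Vim and Col1a1, while Acta2, the usual marker of stellate activation, averaged 0.919 and 1.59 FPKM, and Lrat and Reln, markers of stellate cells that store retinoids, were listed at 0 in all libraries. The stellate markers did not move together. Timp1 averaged 1792 FPKM with PBS and 1694 with PTH, Vim 702 and 928, and Col1a1 291 and 444. Of the 8 tested stellate markers 6 had a log2 fold change above 0, and 2, Timp1 and Hand2, had one below 0. Markers of hepatocytes summed to 6.64 to 8.78 and 8.28 to 10.5 FPKM, with Alb at 0 and 6 of 8 markers at 0 throughout. Those of leukocytes and Kupffer cells summed to 14.7 to 20.9 and 13.1 to 18.7 FPKM, with Ptprc at 0 and 5 of 8 at 0 throughout. Those of endothelium (2.71 to 4.86 and 1.83 to 5.74 FPKM) and cholangiocytes (6.62 to 8.70 and 3.59 to 7.07 FPKM) overlapped between the groups. The part of these differences in the AP-1 values was not tested beyond the covariate and the scalings given.

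Other bZIP proteins that pair with FOS or JUN proteins, or bind related sites, were tested for 10 of 13 genes. With the values as deposited limma called 0 of the 10, while the unadjusted p was under 0.05 for 2 that were higher with PTH and 4 that were lower. Of all 10662 tested genes 1301 were higher and 2310 lower at that unadjusted cut. The median log2 fold change of the list was -0.16, against -0.04 over all tested genes. Maf, a large MAF protein, had the smallest p, with 9.28 ± 0.43 FPKM in the PBS and 12.9 ± 2.16 FPKM in the PTH libraries (limma adjusted p of 0.0617). Maf passed, as higher, with equal summed FPKM (limma adjusted p = 0.0369), after median centring (0.0475), after quantile normalization (0.0482) and after GC correction (0.0388). Of the list 2 genes were called higher with equal summed FPKM, 1 was called lower without the filter on low values, and 1 higher and 2 lower after GC correction. Over all genes, 860 of 10662 were called higher with equal summed FPKM and 553 of 13400 lower without that filter. After GC correction 469 of 9433 were called higher and 525 lower.

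Of the kinases that act on AP-1 proteins and their genes, 2 of 15 tested fell and 0 rose, a count near the 7.96% of all tested genes called lower, with a median log2 fold change of -0.14 against -0.04 over all tested genes. With equal summed FPKM 1 was called lower and 1 higher, and without the filter on low values or without the variance trend 0 were called. Rps6ka3, a kinase downstream of ERK, fell from 24.7 ± 1.86 to 14.4 ± 3.74 FPKM (limma adjusted p = 0.0391). Map2k4, an activator of JNK, fell from 22.7 ± 2.82 to 13.8 ± 3.22 FPKM (limma adjusted p = 0.0409). Both calls ended when PBS library 1, 2 or 3 or PTH library 3 or 4 was left out, and when the mitochondrial share was a covariate their log2 fold changes turned to 0.21 and 0.05.

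Of the transcription factors known to act on the Fos and Jun promoters, 1 of 11 tested rose, 0 fell, and the median log2 fold change was -0.22. A single call among so few genes stands near the background of 3.45% higher and 7.96% lower. Mkl1, a coactivator of serum response factor, rose from 27.0 ± 2.60 to 36.7 ± 2.40 FPKM (limma adjusted p = 0.0319). Of 10 genes for the turnover of AP-1 proteins and unstable mRNAs 1 fell and 0 rose, again near that background, with a median of -0.26. That gene was Zfp36, which binds AU-rich elements and promotes mRNA decay, and which is itself an early response gene. It fell from 35.1 ± 0.81 to 22.0 ± 2.09 FPKM (limma adjusted p = 0.0102). The call of Mkl1 ended when PBS library 1, 2 or 3 or PTH library 3 or 4 was left out, and that of Zfp36 when PBS library 1 or 2 was. Both calls ended with the mitochondrial share as a covariate (limma adjusted p = 0.474 for Mkl1 and 0.092 for Zfp36). They also ended with the replicate number as a block (limma adjusted p = 0.0908 and 0.0842).

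Among known AP-1 target genes the calls were mostly lower, as were those over all tested genes. Of 27 listed genes 20 were tested, of which 7 fell, 1 rose and 12 did not pass, against 7.96% lower and 3.45% higher of all tested genes, with a median log2 fold change of -0.30 against -0.04. With equal summed FPKM 4 were called lower and 1 higher, and without the variance trend 4 lower and 0 higher. Ccl2, a monocyte attractant, fell by 2.25 on the log2 scale and Mt2A, a metallothionein, fell by 1.09. Lif, a cytokine of the IL-6 family, fell from 18.6 ± 2.34 to 11.8 ± 0.51 FPKM, and Gja1, a gap junction protein, from 66.2 ± 1.90 to 46.6 ± 5.98 FPKM. Tgfb1, named after its values were seen, was the gene that rose, from 40.3 ± 0.60 to 48.8 ± 2.14 FPKM (limma adjusted p = 0.0391). The matrix metalloproteinases of the list, Mmp1, Mmp3, Mmp9, Mmp10, Mmp12 and Mmp13, did not pass the filter on low values. Ccl2 and Mt2A kept their calls whichever library was left out, whereas that of Lif ended when PBS library 1, PBS library 2 or PTH library 3 was left out, and that of Gja1 when any of these or PBS library 3 was left out or with equal summed FPKM (limma adjusted p = 0.0517). When the mitochondrial share was a covariate 0 genes of the list were called, with log2 fold changes of -0.96 for Ccl2 (limma adjusted p = 0.0794), -1.19 for Mt2A (0.0958) and -0.02 for Gja1 (0.965). The count of lower genes of the list was 2 to 8 when a library was left out, lowest without PBS library 1 or 2 or PTH library 3.

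Early response genes outside the AP-1 family were mostly lower. Of 12 tested 8 fell, 1 rose and 3 did not pass, against 7.96% lower and 3.45% higher of all tested genes. Their median log2 fold change was -0.53, against -0.04 over all tested genes. Egr1, a growth-factor-induced zinc finger factor, fell from 87.5 ± 9.83 to 41.4 ± 3.63 FPKM (limma adjusted p = 0.00208). Dusp1, a phosphatase that switches off MAP kinases, fell from 33.9 ± 5.73 to 17.0 ± 0.91 FPKM, Ier3 from 291 ± 24.1 to 133 ± 25.1 FPKM and Klf4 from 40.5 ± 1.53 to 27.9 ± 0.57 FPKM. Klf2, named after its values were seen, rose from 17.9 ± 1.41 to 31.2 ± 8.24 FPKM (limma adjusted p = 0.0411). The count of lower genes was 1 to 8 when a library was left out, lowest without PBS library 1. It was 6 with equal summed FPKM or after median centring, and 0 when the mitochondrial share was a covariate. Whether these lists differ from the AP-1 members was not tested.

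**Figure D5:**
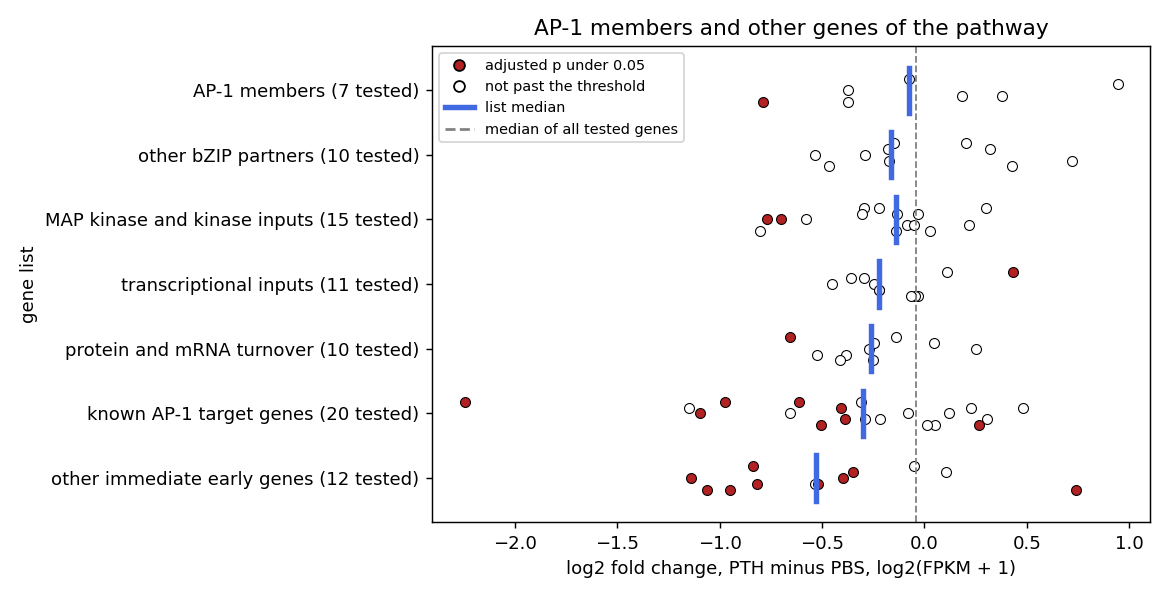
Log2 fold change (PTH minus PBS, on log2(FPKM + 1)) of each tested gene of the AP-1 members and 6 lists of related genes, filled where the limma adjusted p was under 0.05, with the list median in blue and the median of all tested genes as a dashed line. The AP-1 members have a median of -0.07 and 1 call, the early response genes a median of -0.53 and 9 calls.

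Genes with a profile like that of Fos were sought over the 7 libraries. Likeness was the root mean square difference of log2(FPKM + 1) after each gene's mean was subtracted. Rpp30, a subunit of ribonuclease P, came nearest at 0.067, followed by Cfb, complement factor B, at 0.096 and Usp12, a deubiquitinase, at 0.099, where Fos itself had a standard deviation of 0.48 over the libraries. Rpp30 held 11.02, 12.2 and 8.91 FPKM with PBS and 5.03, 4.92, 6.38 and 6.20 FPKM with PTH. Like Fos, it was highest in PBS library 2 and lowest in PTH library 2. Rpp30 was chosen for its likeness over these same libraries, so the shared order is not a separate result.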

How the data were processed

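Gene expression was measured by RNA sequencing in 3 PBS and 4 PTH libraries. The authors deposited FPKM values per gene and library, a log2 fold change, a p-value and an FDR, per the file headers. The headers do not name the test behind that FDR. It was under 0.05 for Fos, and also for Fosl2, Junb and Jund, which limma did not call with the values as deposited. The column of fold changes in the table of higher genes holds infinite values and was checked only as a score, although the file headers of the deposited tables call it log2. The submitters' processing notes list Bowtie 0.12.2 and mm8. How FPKM were computed, with which annotation and with what scaling between libraries, was not given in the sources used here. Of rows that shared a symbol, that with the highest mean was used.

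Genes averaging 1 FPKM or more were tested on log2(FPKM + 1) with limma 3.58.1 in R 4.3.3, with a variance trend, two-sided, over all 10662 genes. Fold changes on that scale understate those of low genes. The test was tried on simulated data, with an outcome that is not reported here and that backs no result above. Members, lists and alternatives were chosen with earlier results of these data known. All members were named, and from each list up to 4 called genes with the smallest p, or the 1 with the smallest p. Of the listed symbols Map3k1, Mkl2, Ier2, Col1a2 and Pecam1 had no row of that name. GC content came from human transcripts of the same symbol (GENCODE 29) for 88.5% of tested genes.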

Additional observations from a re-analysis of the deposited data

How the results depend on the processing

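With the values as deposited 368 genes were higher and 849 lower. Fos stayed called with a pseudocount of 0.1, without a filter on low values, under each scaling, without the variance trend and after GC correction. It was below the mean set for the 5331 higher genes, where Junb passed (log2 fold change -0.37). Counts of higher and lower genes were 212 and 553 without a filter, 860 and 460 with equal summed FPKM, 593 and 554 after median centring, 664 and 573 after quantile normalization, 184 and 441 without the variance trend, and 469 and 525 after GC correction, which also called 2 members lower, with Junb at -0.56. With equal summed FPKM Jun turned to 0.024. With sample quality weights 3109 genes were higher and 4311 lower, and 3 members were called higher and 3 lower, with log2 fold changes of 0.31 for Fosb, -0.31 for Fosl1, 0.93 for Fosl2, -0.38 for Junb and 0.37 for Jund. The estimate of these weights stopped before convergence and gave PBS library 1 a weight of 6.54 and PTH library 3 one of 12. With the mitochondrial share as a covariate 0 genes were higher and 1 lower by limma, while 1600 had an unadjusted p under 0.05, and 0 members were called. Fos stood at -0.85, Fosl2 at -0.48, Jund at -0.33, Maf at -0.10, Rps6ka3 at 0.21 and Map2k4 at 0.049. The cause was not tested.

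Leaving out each library in turn gave 3 to 825 higher and 25 to 1925 lower genes, 0 to 1 members higher and 0 to 2 lower. The log2 fold change of Fos was -0.95 to -0.66, that of Fosl2 0.74 to 1.20, that of Junb -0.46 to -0.30 and that of Jun -0.20 to 0.0042. The log2 ratio of FOS-type to JUN-type sums, 0.20 with all libraries, was 0.07 to 0.37 over these fits, and -0.21 without Fosl2 and Jund.

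The replicate numbers 1 to 3 are shared by both groups, but nothing in the labels pairs them. Deviations from the group mean correlated across genes at -0.0071, 0.0012 and -0.037 for libraries of the same number, so they were not treated as pairs. With the replicate block 3 genes were higher and 17 lower, 0 members were called, Fos stood at -0.86 and Jun at 7.83e-05. PTH library 4 has no partner and adds nothing to that estimate. As the files give no read counts, depth sets an unknown limit on low transcripts such as Fosb.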

Other observations

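PBS library 1 lay between the other two PBS libraries in all 7 tested AP-1 genes. It did so in 53.7% of all tested genes. Fos, Fosb, Fosl1, Jun and Junb shared the order library 2, 1, 3 from high to low, which 24.2% of all tested genes had, and Fosl2 and Jund had the reverse order, which 29.5% had. In the PTH group library 1 was the highest for Fosl2, Jun, Junb and Jund, 4 of 7 members against 37.0% of all tested genes. PTH library 2 was the lowest for Fos, Fosb, Fosl1, Fosl2 and Jun, 5 of 7 members against 21.5% of all tested genes. These orders were noticed in the data and were not tested.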
